A study of Homo sapiens with 4 samples.

Results

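MYC and 9 genes of its protein network (MYCN, MYCL, MAX, MXD1, MXD4, MXI1, MNT, MGA and MLX) were examined with and without X-ray radiation in SW1990 and PANC-1, a pair of established lines from human pancreatic cancer. These are 10 of the 58174 genes with an identifier in the deposited table. They were chosen by gene name and on measured values, because the count of MYC moved in opposite directions in the lines after radiation, so values of the radiation comparison are given as a description. The 4 groups were unirradiated SW1990, SW1990 irradiated with 10 Gy, unirradiated PANC-1 and PANC-1 irradiated with 10 Gy, with 1 library each and therefore no replicates. The lines were grown in different media, so line and medium cannot be told apart, and the time between radiation and harvest is not given in the sources used here. Reads counted on genes numbered 17851815 and 18305682 in unirradiated and irradiated SW1990, and 23323266 and 20026595 in unirradiated and irradiated PANC-1. All 5 epithelial markers checked exceeded 3 counts in each library, led by KRT8, a keratin. EPCAM, an epithelial adhesion molecule, had 7348 and 7552 counts in SW1990 but 108 and 113 in PANC-1, and CDH1, or E-cadherin, had 9906 and 14345 against 59 and 65. The leukocyte marker CD3E was at 0 in each library and PTPRC had at most 2 counts, while CD14 had 39 and 56 counts in unirradiated and irradiated SW1990 and 26 and 52 in PANC-1, where it was 2.20-fold higher after radiation (log2 1.14). In bulk RNA, fewer cells of one kind and less RNA per cell cannot be told apart.

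MYC, MYCN and MYCL encode transcription factors that bind DNA only when paired with MAX, and their dimers activate genes of ribosome production, metabolism and cell division. MXD1, MXD4, MXI1 and MNT pair with the same MAX and repress through SIN3 corepressors and histone deacetylases, while MGA joins MAX in a separate repressive complex. MLX is a MAX-like partner of MLXIP, also called MondoA, and MLXIPL, also called ChREBP, which respond to glucose. MYC is a driver of many pancreatic tumors, and its mRNA and protein are both short-lived.

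These dimers share a preferred DNA element, the E-box CACGTG, which reads the same on both strands. In RefSeq promoters of GRCh38.p14, windows of 300 bases that begin upstream of a gene start and end just past it, the element was present in 2548 of 35116 promoters, or 7.26%. By gene, it was present for 1757 of 16957 genes of the table with a promoter sequence, or 10.4%. Of the 10 genes, 9 had a promoter sequence and MYC had none. The E-box was found for MXD4, MNT and MLX, and was not found in these windows for MYCN, MYCL, MAX, MXD1, MXI1 and MGA. The matching stretches are shown because they are the places where the network's own element lies at its own genes. They are written 5′ to 3′ on the gene's strand with the E-box in capitals. The stretch of MXD4 lies at chr4:2262330-2262359 on the minus strand, that of MNT at chr17:2401236-2401275 on the minus strand and that of MLX at chr17:42567028-42567067 on the plus strand.
MXD4: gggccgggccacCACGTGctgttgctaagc
MNT: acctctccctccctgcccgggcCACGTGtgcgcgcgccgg
MLX: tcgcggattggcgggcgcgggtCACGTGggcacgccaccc
The first base of the box lies 238 bases before the RefSeq start of MXD4, 193 before that of MNT and 50 before that of MLX. Counted from the gene starts of the deposited table, which lie further upstream, the distances are 53, 135 and 18 bases. None of the stretches overlapped an annotated exon. A match of these letters is a description of the sequence and does not show binding, and the lack of one says only that these letters are not in the window.

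Among the MYC family, MYC carried most of the RNA in each library. MYC (ENSG00000136997, chromosome 8, 127735434 to 127741434 on GRCh38) had 94 counts in unirradiated and 505 in irradiated SW1990, and 78 in unirradiated and 45 in irradiated PANC-1. Its level in FPKM, which divides the mapped fragments by transcript length and library size, was 3.50 and 15.5 in SW1990 and 1.88 and 1.36 in PANC-1. Irradiated SW1990 was thus the high library, and irradiated PANC-1 the lowest. MYCL had 52 and 53 counts in SW1990 and 6 and 7 in PANC-1, and MYCN had 6 counts in unirradiated SW1990 and 0 in the other 3 libraries, where 3 counts correspond to between 0.129 and 0.164 CPM, the count scaled to library size. MYC made up 81.0% of the summed FPKM of the 3 family members in unirradiated SW1990, 94.4% in irradiated SW1990, and 95.1% and 94.8% in unirradiated and irradiated PANC-1. MYC ranked 10903rd by FPKM among all genes in unirradiated SW1990 and 5084th in irradiated SW1990. In PANC-1 it ranked 12355th without and 13604th with radiation.

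**Figure D1:**
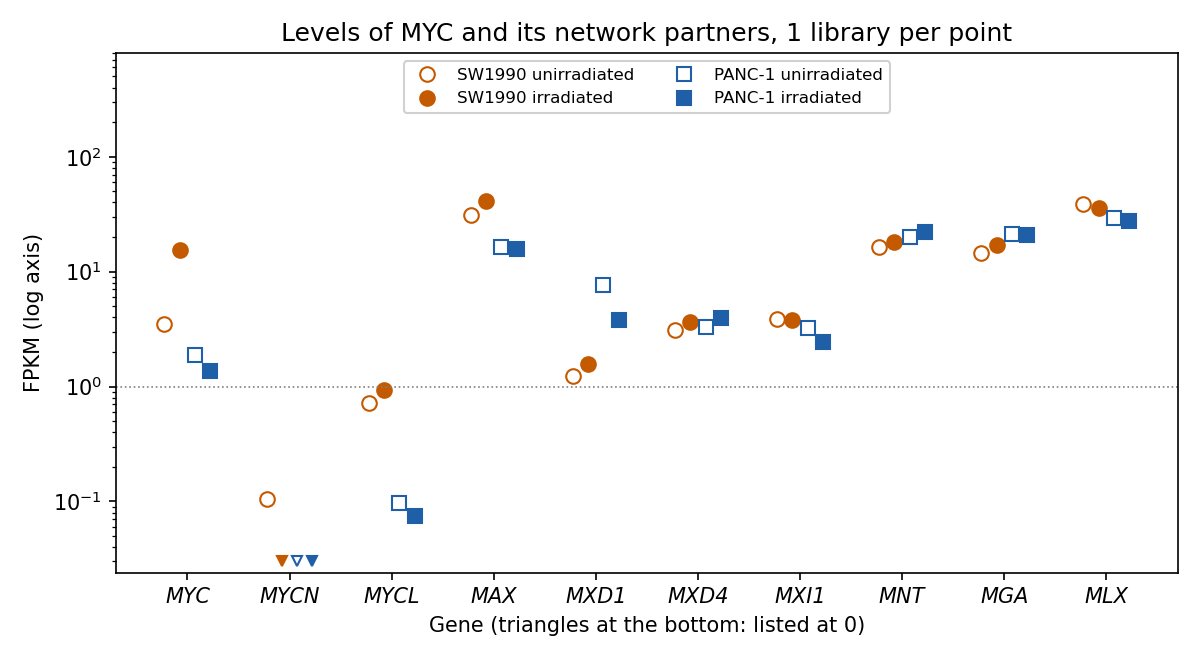
FPKM on a log axis for the 10 genes, 1 point per library, with open symbols for unirradiated and filled symbols for irradiated cells, circles for SW1990 and squares for PANC-1; the dotted line marks an FPKM of 1 and triangles mark genes listed at 0. MYC in irradiated SW1990 (15.5) stands above its other 3 values, while MXD1 is high in unirradiated PANC-1 (7.60).

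The partners and antagonists were mostly more abundant per length than MYC. MAX, the shared partner, had an FPKM of 31.0 and 41.0 in SW1990 and 16.4 and 15.8 in PANC-1, and MLX had 39.1, 35.4, 29.04 and 27.4 in the same order. MNT had 16.5 and 18.3 in SW1990 and 20.04 and 22.3 in PANC-1, and MGA had 14.7 and 17.1 against 21.3 and 21.0. MXD4 and MXI1 stayed between 2.45 and 3.96 in all libraries. MLX led the order by FPKM in 3 libraries and MAX led it in irradiated SW1990. MYC lay between MXI1 and MXD4 in unirradiated SW1990, between MGA and MXI1 in irradiated SW1990, and between MXI1 and MYCL in both PANC-1 libraries. With 1 library per group, no replicate spread was available to separate neighbours in these orders. The ratio of MAX to MYC in FPKM was 8.86 in unirradiated and 2.65 in irradiated SW1990, against 8.72 and 11.5 in PANC-1. The summed FPKM of MXD1, MXD4, MXI1, MNT and MGA was 39.4 and 44.4 in SW1990 and 55.5 and 53.5 in PANC-1, and thus exceeded the MYC family sum in each library.

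Among the 8 of these 10 genes that reached an FPKM of 1, MYC had the largest change after radiation in SW1990, and MXD1, a MAX-bound antagonist of MYC, had the largest in PANC-1. Changes are given as log2 ratios of counts scaled by the trimmed mean of M-values (TMM), with 95% intervals that cover counting error only and not the spread between cultures. MYC was 5.44-fold higher in irradiated SW1990 (log2 2.44, interval 2.12 to 2.78) and 1.58-fold lower in irradiated PANC-1 (log2 -0.66, interval -1.22 to -0.11). The change in SW1990 exceeded that in PANC-1 by 3.10 on the log2 scale (interval 2.48 to 3.72). MXD1 had 115 counts in unirradiated and 155 in irradiated SW1990 (log2 0.45, interval 0.09 to 0.81). In PANC-1, MXD1 had 871 counts without and 357 with radiation and was 2.22-fold lower (log2 -1.15, interval -1.33 to -0.97). Both genes thus had a higher count after radiation in SW1990 and a lower one in PANC-1. Reads of MXD1 are uncertain, since its annotated exons overlap those of SNRNP27 on the same strand, a spliceosome gene with 263, 324, 434 and 282 counts in the same order of libraries.

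Few of the 10 genes passed a 2-fold limit, and their number was close to that of all genes. In each line, 8 of the 10 genes, all but MYCN and MYCL, reached an FPKM of 1 in the unirradiated or the irradiated library. Of these 8, only MYC was past 2-fold in SW1990, where 9.52% of 15731 genes were past 2-fold, 4.88% higher and 4.64% lower after radiation. Only MXD1 was past 2-fold in PANC-1, where 9.15% of 15159 genes were, 5.03% higher and 4.12% lower. MYC had the 138th highest change in SW1990 and the 1303rd lowest in PANC-1. A lower scaled count in PANC-1 was frequent among genes past 2-fold higher in SW1990, though less so than among all genes. Of 415 genes past 2-fold higher in SW1990 and above the FPKM limit in both lines, 182, or 43.9%, were lower in PANC-1 by any amount, against 51.7% of all 13228 genes above the limit in both lines. Of the 415 genes, 50 were past 2-fold lower in PANC-1.

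The other partners differed little between irradiated and unirradiated cells. MAX had 862 and 1058 counts in SW1990 (log2 0.31, interval 0.18 to 0.44) and 643 and 551 in PANC-1 (log2 -0.08, interval -0.25 to 0.08). Its change was larger in SW1990 by 0.40 on the log2 scale (interval 0.19 to 0.61). MXI1 had 181 and 169 counts in SW1990 (log2 -0.08) and 212 and 138 in PANC-1 (log2 -0.48, interval -0.80 to -0.17). MXD4 was slightly higher after radiation in both lines, with log2 values of 0.25 and 0.31 in SW1990 and PANC-1. MLX was slightly lower in both, with log2 values of -0.23 and -0.20. MGA, with 2712 to 4635 counts, had the narrowest intervals, and its log2 values were 0.04 in SW1990 and 0.01 in PANC-1, or 0.22 and -0.02 by FPKM. MNT had log2 values of 0.07 in SW1990 and -0.09 in PANC-1 by counts, but 0.15 in PANC-1 by FPKM, so its direction in PANC-1 depends on the scale.

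**Figure D2:**
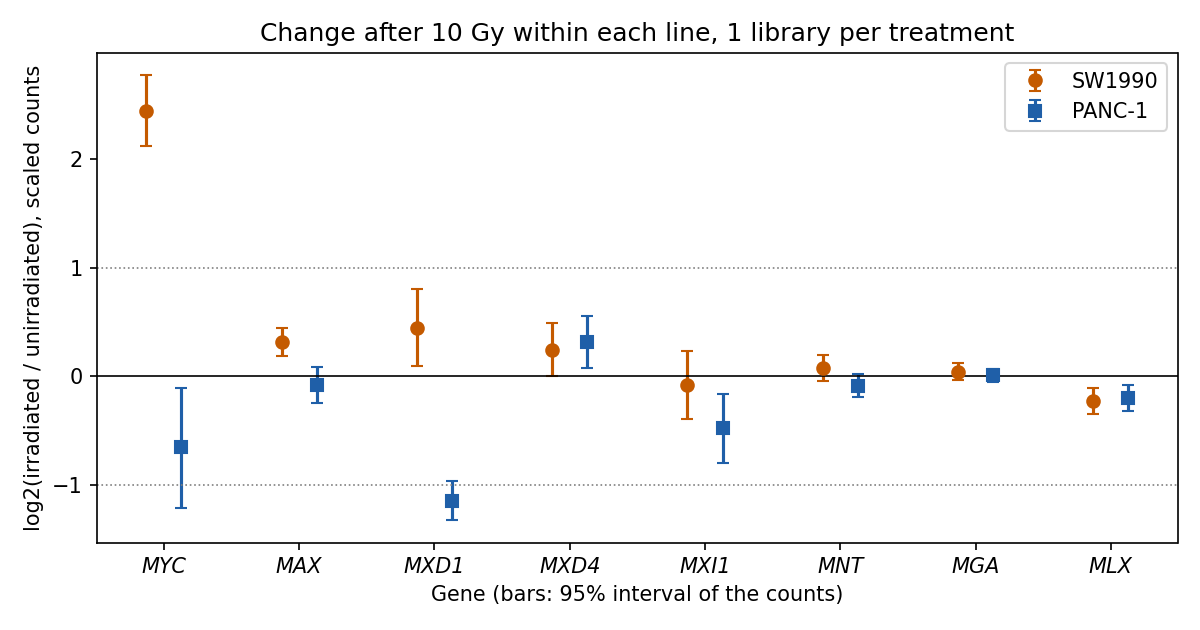
Log2 ratio of TMM-scaled counts, irradiated over unirradiated, for the 8 genes above the FPKM limit, with circles for SW1990, squares for PANC-1, bars for 95% counting intervals and dotted lines at 2-fold. MYC in SW1990 (2.44) and MXD1 in PANC-1 (-1.15) lie beyond the dotted lines.

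The lines themselves were compared in a fit of all 4 libraries, a contrast that was not used to choose the genes. Of the 10 genes, 9 had enough counts to be tested, and 4 passed an adjusted p of 0.05 by edgeR's quasi-likelihood test with Benjamini-Hochberg adjustment, where 43.6% of 18180 genes passed, 21.4% higher in SW1990 and 22.2% higher in PANC-1. The share of called members was thus near that of all genes. The fit had 1 residual degree of freedom, so the test estimated each gene's spread with help from the spread of all genes tested. The 2 libraries of a line are 1 unirradiated and 1 irradiated, so the p-values do not measure the spread between replicate cultures. MYCL was higher in SW1990 (log2 3.10 ± 0.52 SE, n = 2 libraries per line, edgeR adjusted p = 0.0112), 9.74-fold in unirradiated and 7.82-fold in irradiated cells. MAX was also higher in SW1990 (log2 0.79 ± 0.18 SE, edgeR adjusted p = 0.0264), 1.51-fold and 1.98-fold. MXD1 was higher in PANC-1 (log2 of SW1990 over PANC-1 -1.95 ± 0.44 SE, edgeR adjusted p = 0.0250), 6.74-fold in unirradiated but 2.23-fold in irradiated cells. MGA was higher in PANC-1 as well (log2 -0.59 ± 0.13 SE, edgeR adjusted p = 0.0239), 1.52-fold and 1.49-fold. With 1 library left out, the treatment term had to be dropped as well, and the line left with 1 library was assumed to vary like the other, so these fits differ from the full one in both respects. In them, MAX did not pass without irradiated SW1990 (edgeR adjusted p = 0.0961), without unirradiated PANC-1 (0.0578) or without irradiated PANC-1 (0.0628). MGA did not pass without unirradiated SW1990 (edgeR adjusted p = 0.0785), without irradiated SW1990 (0.0627) or without irradiated PANC-1 (0.0539). The log2 difference of MXD1 was -2.48 without irradiated PANC-1 and -1.36 without unirradiated PANC-1. In the fit of all 4 libraries with no filter on low counts, MXD1 (edgeR adjusted p = 0.0512) and MAX (0.0523) did not pass. MYC did not pass (log2 1.99 ± 0.84 SE, edgeR adjusted p = 0.120), with SW1990 1.35-fold above PANC-1 in unirradiated and 11.6-fold above it in irradiated cells. The fit assumes the same response in both lines, and MYC was chosen for unequal responses, which enter its spread. This result therefore cannot decide whether MYC differed between the lines. Without the unirradiated SW1990 library and the treatment term, MYC passed (log2 3.17, edgeR adjusted p = 0.00185), but irradiated SW1990 is then set against both PANC-1 libraries, and the value holds the radiation change that MYC was chosen for. MXD4, MXI1, MNT and MLX did not pass either, with edgeR adjusted p-values between 0.170 and 0.942.

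The remaining proteins of the extended network showed the strongest difference between the lines at MLXIPL. This glucose-responsive partner of MLX had 682 and 616 counts in SW1990 and 16 and 25 in PANC-1 (log2 5.09 ± 0.34 SE, edgeR adjusted p = 0.00125). Its paralog MLXIP had 2385 and 2517 counts in SW1990 and 3208 and 3174 in PANC-1 and did not pass (edgeR adjusted p = 0.160). MXD3, another MAX-bound repressor, had 93 to 126 counts in all libraries, and its reads are uncertain, since its exons overlap RAB24 on the same strand and PRELID1, with 1807 to 2996 counts, on the opposite one. The exons of MLX overlap those of PSMC3IP, with 243 to 362 counts, on the opposite strand. Genes known to be activated by MLX with MondoA were also compared. TXNIP, an inhibitor of glucose uptake, had 295 and 292 counts in SW1990 and 86 and 86 in PANC-1 (log2 1.88 ± 0.26 SE, edgeR adjusted p = 0.00697). ARRDC3, an arrestin-like adaptor, had 153 and 167 against 551 and 640 (log2 -1.79 ± 0.21 SE, edgeR adjusted p = 0.00446). The 3 MondoA targets listed passed between the lines, 2 higher in SW1990 and 1 in PANC-1, in a contrast that 43.6% of all genes passed, and none was past 2-fold after radiation among those above the FPKM limit.

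The 4 transcripts around the MYC gene that reached an FPKM of 1 differed more between the lines than after radiation in SW1990. PVT1, a long noncoding RNA gene next to MYC, had 361 and 454 counts in SW1990 (log2 0.35, interval 0.15 to 0.55) and 1683 and 1354 in PANC-1 (log2 -0.18, interval -0.28 to -0.07). Its FPKM was 6.65 times that of MYC in unirradiated and 1.81 times in irradiated SW1990, but 44.7 and 53.7 times in PANC-1. PVT1 was higher in PANC-1 (log2 of SW1990 over PANC-1 -1.79 ± 0.20 SE, edgeR adjusted p = 0.00393). CCAT1, a noncoding RNA from the enhancer region upstream of MYC, had 834 and 808 counts in SW1990 and 0 in both PANC-1 libraries. It was therefore at least 312-fold higher in unirradiated and at least 278-fold higher in irradiated SW1990, taking 3 counts as the floor in a PANC-1 library. CASC19, from the same region, had 109 and 72 counts in SW1990 and 0 in PANC-1, at least 40.8-fold and 24.8-fold higher. FAM84B, a protein-coding gene of the region, had 1076 and 1016 counts in SW1990 (log2 -0.07) and 768 and 327 in PANC-1, where it was 2.13-fold lower after radiation (log2 -1.09, interval -1.29 to -0.91). It was the 1 gene of the region past 2-fold in either line, among 4 genes of 11 listed that were above the FPKM limit in SW1990 and 2 in PANC-1, beside 9.52% and 9.15% of all genes. Between the lines, FAM84B was higher in SW1990 (log2 1.16 ± 0.29 SE, edgeR adjusted p = 0.0325), a call lost in 5 of 10 alternatives. Its difference between the unirradiated lines, 1.57-fold, was smaller than its change after radiation in PANC-1. Below the limit, PCAT1 had 9 and 4 counts and CASC8 had 0 and 7 in SW1990. POU5F1B, also below it, had 31 and 61 counts in SW1990 (log2 0.99, interval 0.35 to 1.67) and 4 and 0 in PANC-1. PRNCR1 had 197 and 147 counts in SW1990 (log2 -0.41) and 131 and 81 in PANC-1 (log2 -0.56).

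**Figure D3:**
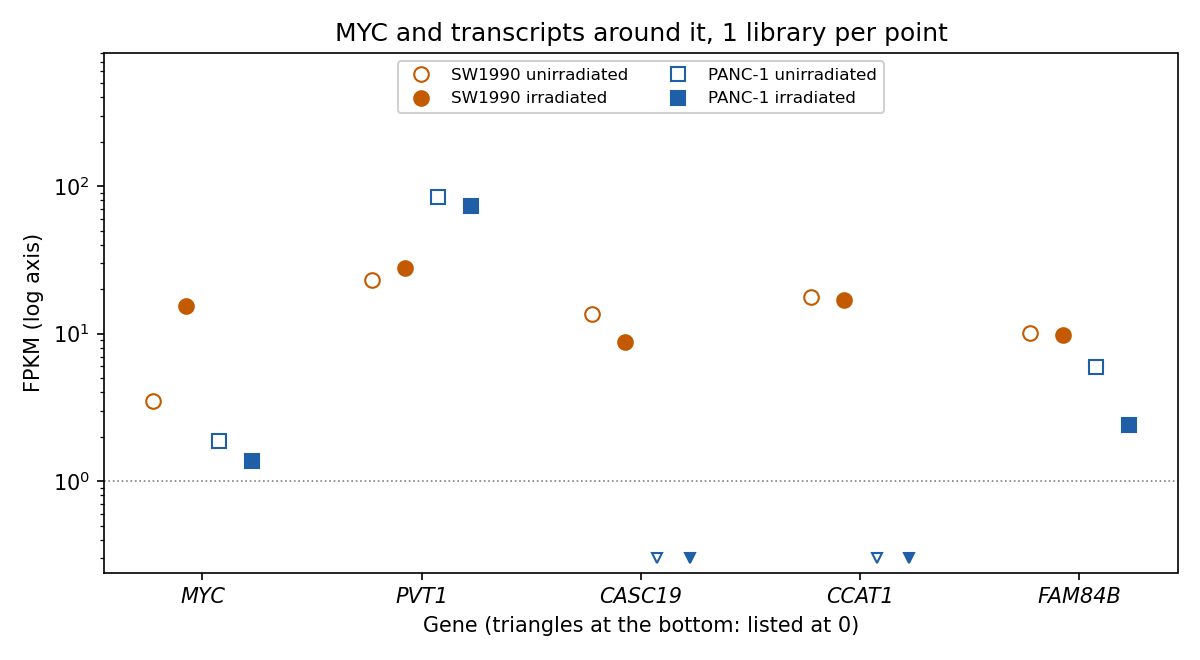
FPKM on a log axis for MYC and the 4 listed genes around it that reached an FPKM of 1, 1 point per library, open for unirradiated and filled for irradiated cells, with circles for SW1990, squares for PANC-1 and triangles for genes listed at 0. PVT1 is highest in PANC-1 (84.0 and 73.3), CCAT1 and CASC19 are at 0 there, and MYC alone of the 5 genes differs widely between the SW1990 libraries.

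Textbook targets that MYC activates were followed in 4 groups by role, 62 genes in all, each above the FPKM limit in both lines. In SW1990, where MYC was 5.44-fold higher after radiation, 33 of the 62 genes were higher and 29 lower, and 0 were past 2-fold in either direction. Their median log2 value was 0.01, against 0.02 over all genes, and -0.03 by FPKM. In PANC-1, 23 were higher and 39 lower, with a median of -0.07 against -0.01 over all genes, and 3 were past 2-fold. Of all genes above the limit, 53.0% in SW1990 and 49.1% in PANC-1 were higher, and 9.52% and 9.15% were past 2-fold. These targets are abundant genes, of which 61 in SW1990 and 60 in PANC-1 had an FPKM of at least 5. At that level, 0 of the 61 and 1 of the 60 targets were past 2-fold, beside 3.4% of all genes in SW1990 and 3.69% in PANC-1. These numbers rest on scaled counts. By FPKM, WDR43 (log2 -1.07 in place of -0.49) and SLC1A5 (-1.01 in place of -0.42) were also past 2-fold lower in PANC-1. Over all genes above an FPKM of 1, 1520 were past 2-fold there by FPKM in place of 1387.

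By role, 26 genes of the nucleolus and ribosome biogenesis had median log2 values of 0.00 in SW1990 and -0.10 in PANC-1. NPM1, a nucleolar chaperone, had 18307 and 18190 counts in SW1990 and 24647 and 18269 in PANC-1 (log2 0.01 and -0.29). FBL, the methyltransferase fibrillarin, had 4302 and 4236 counts in SW1990 and 61608 and 51489 in PANC-1 (log2 of SW1990 over PANC-1 -3.61 ± 0.15 SE, edgeR adjusted p = 0.000804), and its log2 values after radiation were -0.01 and -0.12. The 18 genes of metabolism and nucleotide synthesis had medians of 0.04 and -0.27, or -0.02 and -0.16 by FPKM. PAICS, an enzyme of purine synthesis, was one of the 3 genes past 2-fold in PANC-1, where its 2636 counts stood against 6143 after radiation (log2 1.36, interval 1.29 to 1.43). In SW1990 it had 10846 and 7677 counts (log2 -0.48, interval -0.52 to -0.44). The abundant glycolytic enzymes ENO1 and PKM had log2 values of 0.15 and -0.06 in SW1990 and -0.26 and 0.16 in PANC-1.

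The 8 genes of translation and protein folding had medians of 0.00 in SW1990 and -0.05 in PANC-1. EIF5A, a translation factor, had log2 values of 0.01 and 0.00, and HSPD1, a mitochondrial chaperonin, 0.10 and -0.01. The 10 cell cycle genes had medians of 0.12 and 0.17 by counts, but -0.02 and 0.48 by FPKM, so the direction in SW1990 depends on the scale. CCND2, or cyclin D2, had 3470 and 4263 counts in SW1990 (log2 0.31) and 248 and 53 in PANC-1, where it was 4.25-fold lower after radiation (log2 -2.09, interval -2.55 to -1.66). TERT, the telomerase catalytic subunit, had 51 and 54 counts in SW1990 and 40 and 87 in PANC-1 (log2 1.26, interval 0.70 to 1.84), but its log2 value in PANC-1 was 3.06 by FPKM, so the size depends on the scale. CDK4, a cyclin D partner, had 3015 and 1653 counts in PANC-1 (log2 -0.73) and 2185 and 2004 in SW1990 (log2 -0.11). MCM4, a subunit of the replicative helicase, had log2 values of -0.08 in SW1990 and 0.22 in PANC-1. Between the lines, 15 of the 62 activated targets were called higher in SW1990 and 4 higher in PANC-1 by edgeR's quasi-likelihood test, beside 21.4% and 22.2% of all genes.

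Of the 10 textbook genes that MYC represses, 9 were above the FPKM limit in SW1990, with a median of 0.15, and 8 in PANC-1, with a median of -0.30. By FPKM these medians were 0.03 and -0.11. CDKN1A, the cell cycle inhibitor p21, was the 1 gene past 2-fold by scaled counts, in SW1990 only, beside 9.52% of all genes there and 9.15% in PANC-1. It had 1229 and 4002 counts in SW1990, 3.29-fold higher after radiation (log2 1.72, interval 1.63 to 1.81), and 1282 and 782 in PANC-1 (log2 -0.57, interval -0.71 to -0.45). CDKN1A thus had the direction of MYC in both lines. GADD45A, picked out after its values were seen, did as well, though not past 2-fold. Its log2 values were 0.70 (interval 0.53 to 0.87) in SW1990 and -0.88 (interval -0.99 to -0.77) in PANC-1. The other listed genes above the limit in both lines had the same sign in both. CDKN1A is also a direct target of p53 after DNA damage, and the part of that pathway in its change was not tested. ITGB1, the beta 1 integrin, had log2 values of -0.12 and -0.36. By FPKM, NDRG1 (log2 1.35) and CDKN1C (1.003) were past 2-fold higher in PANC-1. NDRG1 had 326 and 560 counts there (log2 0.92, interval 0.72 to 1.12). By counts, 2 of the 8 genes were higher in PANC-1 and 6 lower, beside 49.1% of all genes that were higher.

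**Figure D4:**
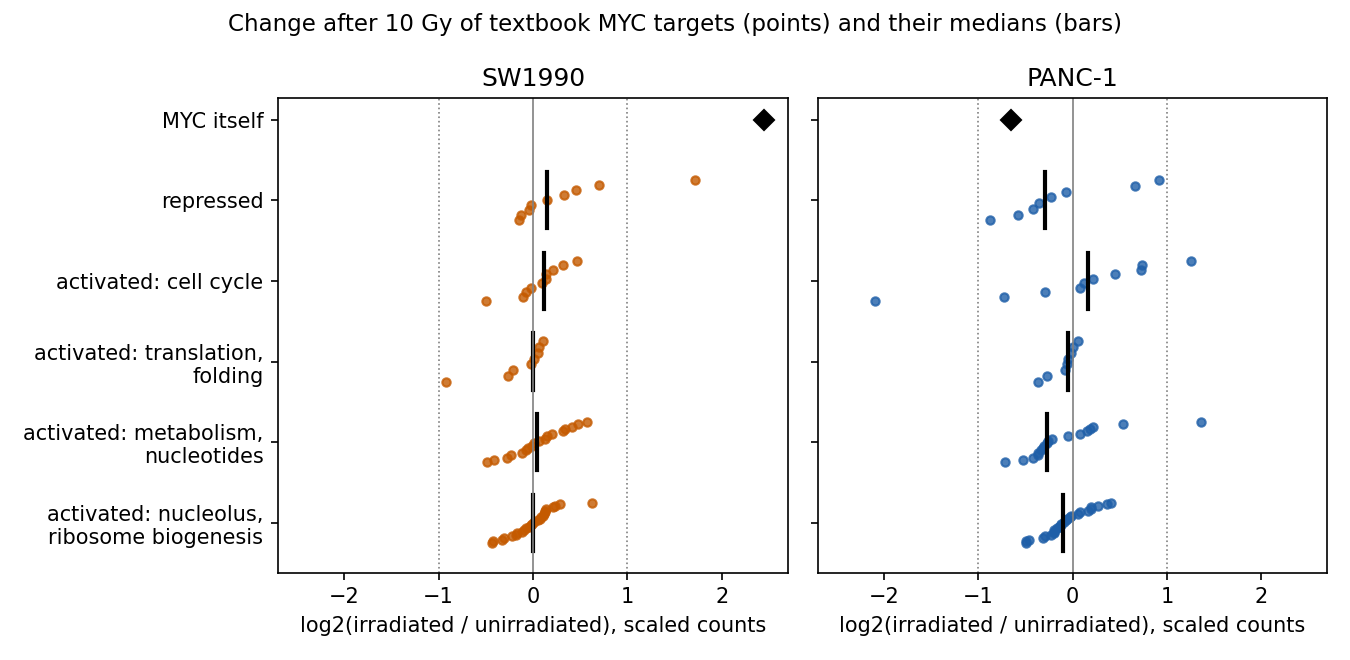
Log2 ratio of TMM-scaled counts, irradiated over unirradiated, for textbook MYC targets above the FPKM limit in SW1990 (left) and PANC-1 (right), with 1 point per gene, a bar at each group's median, a diamond for MYC and dotted lines at 2-fold. Medians of the activated groups lie between 0.00 and 0.12 in SW1990 and between -0.27 and 0.17 in PANC-1, while MYC lies at 2.44 and -0.66.

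The E-box was present for 22 of the 51 activated targets with a promoter sequence, or 43.1%, beside the 10.4% of all genes given above. That share covers genes of any level, while the activated targets were all above the FPKM limit. The grouping of genes by E-box was added after the data were seen. The E-box was found for 8 of 21 nucleolar genes, 8 of 15 metabolic genes, 4 of 8 translation genes and 2 of 7 cell cycle genes, and for 1 of 7 repressed genes. Among genes with a promoter sequence that reached the FPKM limit, the 1219 with an E-box had a median log2 value of 0.00 in SW1990. The 8292 without one had a median of 0.04. In PANC-1 the medians were -0.03 for 1201 such genes with an E-box and -0.02 for 8128 without.

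Regulators of MYC were followed in 3 further groups, and no member above the FPKM limit was past 2-fold in either line by scaled counts. Of all genes above that limit, 9.52% in SW1990 and 9.15% in PANC-1 were, and of those that reached an FPKM of 5, 3.4% and 3.69%. The 15 listed factors that act on MYC transcription or mRNA had medians of -0.02 over 14 genes in SW1990 and -0.14 over 15 genes in PANC-1. CNBP, a nucleic acid binding protein known to act at the MYC promoter, had 4350 and 2371 counts in SW1990 (log2 -0.86, interval -0.93 to -0.79) and 5863 and 4130 in PANC-1 (log2 -0.37). By FPKM, CNBP was past 2-fold lower in SW1990 (log2 -1.115). HNRNPK, which binds the same promoter region, had log2 values of -0.26 and -0.32. IGF2BP1, which stabilizes MYC mRNA and was picked out after its values were seen, had 10 and 12 counts in SW1990 and 4589 and 3957 in PANC-1. The 18 cofactors, coactivators of MYC and corepressors of the MXD proteins, had medians of -0.12 and -0.13, or -0.18 and -0.02 by FPKM. RUVBL2, an ATPase of chromatin complexes, had log2 values of 0.12 and -0.14, and the deacetylase HDAC1 0.17 and 0.13. The 15 enzymes of MYC protein turnover had medians of 0.00 and -0.10, with log2 values of 0.00 and -0.11 for the ubiquitin ligase HUWE1 and -0.02 and 0.29 for the kinase PLK1.

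Genes whose pattern over the 4 libraries was near that of MYC included C1GALT1C1, SENP3-EIF4A1, MRPL30 and DAB2. Likeness was the Euclidean distance between log2 CPM centred on each gene's mean, among 12019 genes with a mean count of at least 100, and a small distance over 4 libraries is a description only. C1GALT1C1, a chaperone of an O-glycosylation enzyme (distance 0.588), had 58 and 400 counts in SW1990 and 42 and 41 in PANC-1. Its change in SW1990, 6.98-fold, was of the size of that of MYC, and its PANC-1 log2 value was 0.10. SENP3-EIF4A1 (distance 0.630) had 1303 and 4424 counts in SW1990 and 1153 and 674 in PANC-1. It is a readthrough annotation that shares exons with EIF4A1, whose counts were 5569 and 2905 in SW1990 and 6638 and 4667 in PANC-1, so the division of reads between them is uncertain. MRPL30, a mitochondrial ribosomal protein gene (distance 0.739), had 349, 1525, 366 and 272 counts in the same order, and DAB2, an endocytic adaptor (distance 0.866), had 286, 901, 167 and 175. The count of SENP3-EIF4A1 and that of MRPL30 were lower after radiation in PANC-1, as was that of MYC, with log2 values of -0.64 and -0.29.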

How the data were processed

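RNA of 4 libraries, 1 per line and treatment, was sequenced with an mRNA library kit, although the labels describe the RNA as depleted of rRNA. Per the labels and methods, the authors trimmed reads with Trimmomatic 0.36, aligned them to GRCh38 with HISAT2 2.0 and computed expression with StringTie 1.3.3b before they deposited 1 table. The submitters' processing notes also name CASAVA 1.8, FastQC 0.11.2 and DESeq2 1.12.4. The deposited read counts are whole numbers that were not normalized. The counting tool is not given in the sources used here. The FPKM values were normalized by the authors for length and library size, and were used for levels and the limit of 1. Whether counting used strand is not given in the sources used here. Of 59263 rows, 1089 unnamed loci (0.45% to 0.64% of counts) were left out, and 27 names turned into dates were restored from identifiers, of which 57836 matched GENCODE release 29. All 10 genes had the same coordinates there.

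Counts were scaled by TMM (edgeR 4.0.16, R 4.3.3). Within a line, ratios carry exact (Clopper-Pearson) 95% counting intervals (scipy 1.17.1), with no test. Intervals and the floor of 3 counts cover counting error only. The lines were compared with edgeR's quasi-likelihood test on all 4 libraries, with treatment as a covariate, genes kept by filterByExpr and Benjamini-Hochberg adjustment over 18180 genes, after a check on simulated counts. The fit assumes the same response in both lines, so unequal responses enter the spread. DESeq2 1.42.0 and limma 3.58.1 served in alternatives, as did other scalings, limits and filters and leaving out each library.

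The genes and lists were chosen with earlier results of these data known. Named were the 10 genes, the listed network and neighbouring genes with an FPKM of at least 1, the genes past 2-fold and the 2 of highest mean FPKM in each other list, and the 5 genes nearest to MYC, of which 1 is not reported here. IGF2BP1, GADD45A, the neighbouring genes below the limit and the genes given as past 2-fold by FPKM alone (NDRG1, CDKN1C, WDR43 and SLC1A5) fall outside this rule. Leukocyte, fibroblast, endothelial and erythroid markers were summed beside the epithelial ones. The summed FPKM of the 4 leukocyte markers was between 0.468 and 1.33, mostly CD14, and that of the 3 fibroblast markers at most 0.0230. The 3 endothelial markers summed to at most 0.309 and the 2 erythroid markers to at most 1.28, both in irradiated SW1990. The 5 epithelial markers summed to 2877 and 3714 in SW1990 and 1403 and 1634 in PANC-1.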

Additional observations from a re-analysis of the deposited data

Results flagged for a closer look

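MYC had a higher count after radiation in SW1990 and a lower one in PANC-1, and the log2 change in SW1990 exceeded that in PANC-1 by 3.10. MXD1 showed the same pair of directions, with a difference of 1.60 (counting interval 1.21 to 1.99). Reads of MXD1 are uncertain, since its exons overlap those of SNRNP27 on the same strand. The count of SNRNP27 was also higher after radiation in SW1990 (263 and 324) and lower in PANC-1 (434 and 282). Each line had 1 library per treatment, so the differences of MYC and MXD1 were not tested against the spread between cultures. MYC was chosen for this pattern.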

How the results depend on the processing

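No value past its limit in the report changed sign. By FPKM, the sign turned among others for MNT in PANC-1 (0.15), MGA in PANC-1 (-0.02), MLXIPL in SW1990 (0.02), HUWE1 in PANC-1 (0.10), NPM1 (-0.05), FBL (0.04) and TERT (-0.65) in SW1990 and the SW1990 median of the cell cycle targets (-0.02). With total counts, it turned among others for MGA in SW1990 (-0.01) and for the PANC-1 medians of all activated targets (0.01) and of the translation group (0.03). NPM1 and EIF5A in SW1990 and HSPD1 in PANC-1, all near 0, turned as well. Some other medians of the report that lie within 0.05 of 0 also changed sign with the scaling, as did line differences of MXD3, MXD4, MXI1 and MLX that had not passed. With FPKM and a pseudocount of 1 in place of scaled counts, the log2 change of MYC in SW1990 was 1.87 and its excess over PANC-1 was 2.16, the genes past 2-fold were 640 in SW1990 and 596 in PANC-1 in place of 1497 and 1387, and 0 of the 10 genes were past 2-fold in PANC-1. A limit of 1.5-fold gave 3230 and 3285 genes, and 2 of the 10 genes in PANC-1, MYC and MXD1. No filter on low values gave 7922 and 7908 genes, and 2 of the 10 genes in SW1990, as MYCN was added. An FPKM of at least 5 left 345 and 365. With DESeq2 size factors or total counts, these counts stayed within 1.5 times and MYC within its counting interval. Between the lines, 7921 genes were called, and leaving out 1 library, and with it the treatment term, gave 5908 to 6394 genes and 2 to 4 of the 10 genes, with 2 called without irradiated SW1990 or without irradiated PANC-1. With no filter on low counts, 2 of the 10 genes were called, and the adjusted p was 0.0523 for MAX and 0.0512 for MXD1. In 10 alternatives, with limma, DESeq2 and edgeR fits, the adjusted p ranged from 0.00185 to 0.307 for MYC, which passed in 3, from 0.00378 to 0.0961 for MAX, lost in 4, from 0.00116 to 0.117 for MGA, lost in 5, and from 0.00882 to 0.0512 for MXD1, lost in 1. MYCL, MLXIPL and PVT1 passed in each alternative that could test them. MYC rests on 45 to 505 counts per library, and depth limits MYCN and MYCL most. The replicate numbers were not used for pairing, as each group has 1 library and all carry the number 1. Treatment is a term of the fit, so the lines were compared within treatments, and radiation was not tested, as the genes were chosen on that contrast.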
